A study of Mus musculus with 8 samples.

Results

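The genes described here are 10 transcripts of the circadian clock: Ciart, Per1, Per2, Per3, Cry1, Dbp, Tef, Nr1d1, Nr1d2 and Bhlhe40. They were picked from the 20189 genes of the expression table with the difference between acetate and vehicle in these same libraries in view, so they were selected on that difference, and each difference is given below as a description. Intervals of counting error and counts of calls are shown for them in the same way, and none of these is evidence that the genes respond to acetate. RNA-seq was done on 4T1, an established cell line from a mammary carcinoma of the mouse that forms metastases after transfer into mice, and all 8 libraries are labelled wild type (WT). One group of 4 libraries came from cells kept for 48 h with 5 mM acetate, a substrate for acetyl-CoA synthesis, and the other group of 4 came from cells kept for the same 48 h with the vehicle, H2O. Both groups grew in the same serum-containing medium, and same-numbered libraries of the groups share a code in the labels. Values are normalised reads, called units here, on a total of 20000000 per library.

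The circadian clock is a transcriptional feedback loop that most mammalian cells can run. CLOCK and ARNTL (BMAL1) bind E-box elements and activate the Per, Cry, Ciart, Bhlhe40, Nr1d1, Nr1d2, Dbp and Tef genes, and the PER, CRY, CIART and BHLHE40 proteins then repress that activity. NR1D1 and NR1D2 (REV-ERB alpha and beta) compete with the ROR receptors on elements of Arntl, and the activators DBP, TEF and HLF compete with the repressor NFIL3 on D-box elements. Cultured cells drift out of phase with each other unless a serum pulse or a hormone resets them, and the hour of harvest is not given in the sources used here. In the methods, the cell lines were kept in medium with serum. After overnight seeding the medium was changed to start treatment, and this change is not described separately for vehicle. Whether that step set the phase was not tested. Because each group was taken at 1 time, a shift of phase and a change of level cannot be told apart. Because whole cultures were lysed, fewer cells that express a gene and less RNA per cell cannot be told apart either.

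Promoter sequence was taken from RefSeq (GRCm38.p6) as windows from 250 bases before to 50 bases after the annotated start, and 8 of the 10 genes had at least 1 window, with 10 windows in all. Bhlhe40 and Per2 had none. Both strands were searched for the E-box CACGTG, the E'-box CACGTT, the D-box in its forms TTATGCAA, TTATGTAA and TTACGTAA, the ROR element in its forms TAGGTCA and TGGGTCA, and the CRE TGACGTCA. An E-box was present in windows of 4 of the 8 genes and a D-box in windows of 2. Among 32851 mouse promoter windows of the same length, 7.15% held an E-box, 4.68% an E'-box, 1.78% a D-box, 6.45% a ROR element and 1.79% a CRE. The 4 windows printed here belong to the gene with the lowest value in acetate relative to vehicle (Ciart), the cryptochrome that was also lower (Cry1), the Period gene that was higher in every pair (Per1) and a Period gene with no common direction (Per3). Capitals mark every match, and the AACGTG of Cry1 is the E'-box read from the other strand.
Ciart chr3:95882179-95882478 (- strand): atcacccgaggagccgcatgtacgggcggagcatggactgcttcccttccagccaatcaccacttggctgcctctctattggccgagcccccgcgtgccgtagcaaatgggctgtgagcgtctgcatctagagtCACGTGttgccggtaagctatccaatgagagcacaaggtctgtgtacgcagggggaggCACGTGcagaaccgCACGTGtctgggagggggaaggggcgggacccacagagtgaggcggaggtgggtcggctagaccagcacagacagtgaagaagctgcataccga
Cry1 chr10:85185005-85185304 (- strand): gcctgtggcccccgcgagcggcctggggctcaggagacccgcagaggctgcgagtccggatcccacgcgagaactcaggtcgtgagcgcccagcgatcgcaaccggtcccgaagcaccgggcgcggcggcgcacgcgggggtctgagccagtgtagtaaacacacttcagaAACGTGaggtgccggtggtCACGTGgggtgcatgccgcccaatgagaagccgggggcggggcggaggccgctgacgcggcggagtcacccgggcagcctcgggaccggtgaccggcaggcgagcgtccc
Per1 chr11:69098699-69098998 (+ strand): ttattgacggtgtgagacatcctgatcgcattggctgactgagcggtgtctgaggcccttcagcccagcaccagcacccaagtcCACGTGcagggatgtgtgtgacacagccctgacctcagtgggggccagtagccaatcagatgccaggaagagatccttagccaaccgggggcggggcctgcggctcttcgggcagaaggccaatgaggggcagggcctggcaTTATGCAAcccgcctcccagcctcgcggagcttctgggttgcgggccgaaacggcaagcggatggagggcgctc
Per3 chr4:151044616-151044915 (- strand): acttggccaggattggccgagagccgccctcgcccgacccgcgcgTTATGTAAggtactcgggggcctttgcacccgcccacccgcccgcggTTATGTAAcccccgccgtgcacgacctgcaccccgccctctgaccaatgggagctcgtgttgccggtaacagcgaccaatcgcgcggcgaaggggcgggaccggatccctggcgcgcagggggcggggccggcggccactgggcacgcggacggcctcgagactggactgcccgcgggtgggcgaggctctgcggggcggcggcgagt

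The Ciart window held E-boxes 116, 58 and 44 bases before the start, and 29 of all windows (0.0883%) held 3 or more. The Cry1 window held an E-box 60 bases and an E'-box 79 bases before the start. The first Per1 window held an E-box 166 bases and a D-box 24 bases before the start, while its second window held no match. The Per3 window held D-boxes 205 and 158 bases before the start, and 18 of all windows (0.0548%) held 2 or more. Of the windows not printed, the pair from Tef each held 1 E-box, 127 and 138 bases before the start, and Nr1d1 held an E'-box 28 bases before the start. The Dbp and Nr1d2 windows held none of these letters. A match in these windows is a description of sequence, and no binding was measured.

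**Figure D1:**
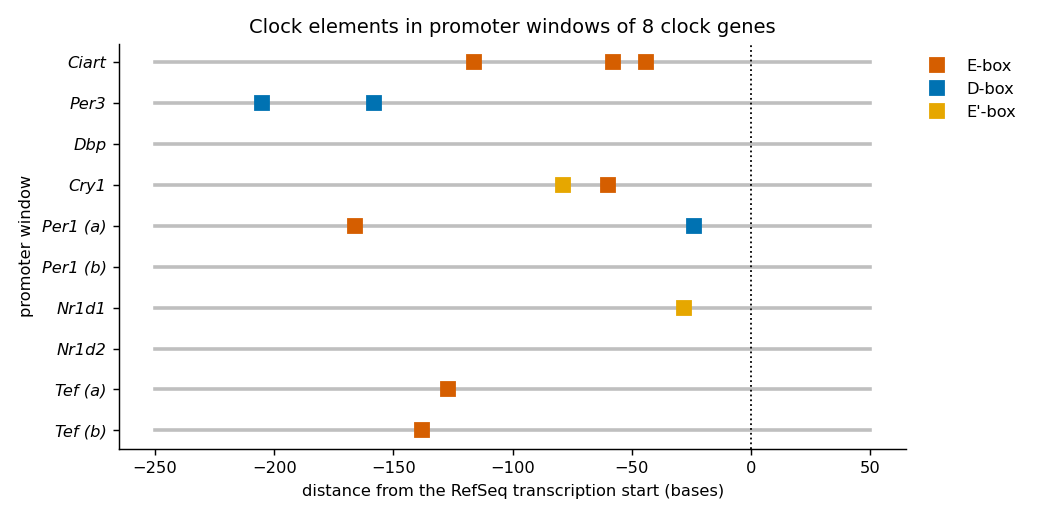
Positions of E-box, E'-box and D-box matches (squares) in the RefSeq promoter windows of 8 clock genes, with distance from the transcription start in bases on the x axis and 1 row per window (a and b where a gene has more than 1). Ciart holds 3 E-boxes, Per3 holds 2 D-boxes, and Dbp and Nr1d2 hold no match.

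Reads recovered from the deposited values, which cover only the genes of the table, numbered between 19895088 and 29305620 per library. Markers of mammary carcinoma epithelium summed to 44400 to 61900 units in vehicle and 47400 to 63500 in acetate, with 6 of 7 listed genes in the table. Of these, Cldn4 (log2 change 0.30), Krt14 (0.36) and Cdh1 (0.15) rose with the replicate number as a block and were higher in 4 of 4 pairs (limma adjusted p 3.19e-04, 0.00405 and 0.00592), and Epcam, Krt8 and Krt18 were not called. Leukocyte markers (2 of 3 in the table) summed to 79.4 to 192 units and 69.1 to 187 units, with Ptprc under 5 units in every library, and the endothelial markers Pecam1 and Cdh5 were also both under 5 units. The fibroblast list (2 of 3 in the table) summed to 229 to 1500 units in vehicle and 391 to 1970 in acetate, nearly all of it Pdgfra. Pdgfra rose in the paired comparison and was higher in 4 of 4 pairs (limma with the replicate number as a block, adjusted p 3.72e-04), while Dcn was at 0 to 14.5 units. The part of these cells or levels in the results below was not tested. Deviations from the group mean correlated within same-numbered pairs, at 0.814 and 0.691 in pairs 1 and 4 but only 0.273 and 0.201 in pairs 2 and 3. Paired values with the replicate number as a block are therefore given beside those without it.

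Ciart, which encodes a repressor of CLOCK and ARNTL (ENSMUSG00000038550, GRCm38 chromosome 3, 95878503 to 95882251, minus strand), had the largest difference of the 10 genes. Vehicle replicates 1 to 4 had 262.6, 330.4, 349.8 and 247.1 units of Ciart, and the acetate replicates had 142.8, 270.6, 252.0 and 178.2. Acetate was lower in 4 of 4 pairs, although the groups overlapped because acetate replicates 2 and 3 were above vehicle replicate 4. The means were 297.5 ± 50.3 units in vehicle and 210.9 ± 60.4 in acetate (SD, n = 4), a ratio of 0.695. The within-pair differences of Ciart on the log2(units + 1) scale were -0.87, -0.29, -0.47 and -0.47, and their mean was -0.53 with an SE of 0.09 with the replicate block and of 0.23 without it. In each of the 4 pairs the 95% Clopper-Pearson interval of the read ratio lay below 0 on the log2 scale, from -1.15 to -0.62 in pair 1 and from -0.50 to -0.08 in pair 2. These intervals cover counting error only. Without pair 1, which had the largest difference, the mean log2 change of Ciart was -0.41.

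Cry1 encodes a cryptochrome, the main partner of the PER proteins in repression (ENSMUSG00000020038, chromosome 10, 85131700 to 85185064, minus strand). Its vehicle replicates had 355.0, 352.4, 390.0 and 301.0 units, and its acetate replicates had 302.2, 315.0, 298.2 and 258.0. Each acetate library was below its own vehicle partner, and vehicle replicate 4 was below acetate replicates 1 and 2. The means of Cry1 were 349.6 ± 36.7 and 293.3 ± 24.6 units (SD, n = 4), a ratio of 0.841. Its pair differences were -0.23, -0.16, -0.39 and -0.22 on the log2 scale, with a mean of -0.25, an SE of 0.06 with the block and an SE of 0.13 without it. The counting interval lay below 0 in 3 of the 4 pairs.

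**Figure D2:**
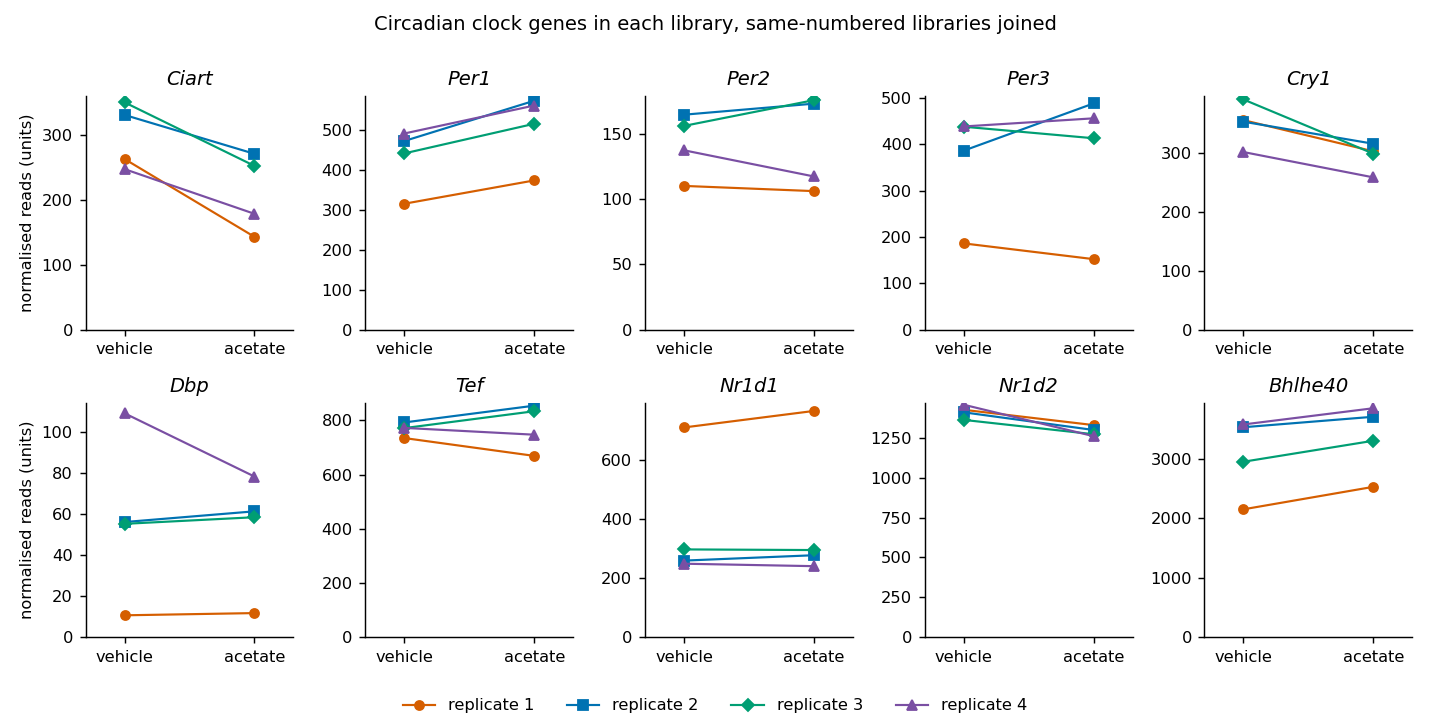
Normalised reads (units, y axis from 0) of the 10 clock genes in each vehicle and acetate library, with 1 panel per gene and a line joining libraries of the same replicate number. The 4 lines of Ciart, Cry1 and Nr1d2 slope down and those of Per1 and Bhlhe40 slope up, while replicate 1 lies far from the others in Nr1d1, Dbp and Per3.

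Of the 3 Period genes, which encode the partners of the cryptochromes, Per1 was higher in acetate in every pair and Per2 and Per3 had no common direction. Per1 (ENSMUSG00000020893, chromosome 11, 69095217 to 69109960, plus strand), which also responds directly to serum and cAMP, had 314.5, 471.2, 440.3 and 490.0 units in vehicle and 372.8, 571.9, 514.3 and 559.9 in acetate. The groups overlapped because replicate 1 was low in both. Within pairs the Per1 difference kept close to 1 size, at 0.24, 0.28, 0.22 and 0.19 on the log2 scale, with an SD of 0.04. Its mean was 0.23, a ratio of 1.18, with an SE of 0.05 with the block and of 0.19 without it. The counting interval of Per1 lay above 0 in 4 of 4 pairs, from 0.05 to 0.44 in pair 1 and from 0.04 to 0.34 in pair 4. Each interval was wider than the spread of the 4 differences, so their evenness lies within counting error. Unpaired, leaving out the vehicle library of replicate 1 gave Per1 a log2 change of 0.09 and leaving out its acetate partner gave 0.37, while it lay between 0.22 and 0.25 without each pair in turn.

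Per2 (ENSMUSG00000055866, chromosome 1, 91415982 to 91459324, minus strand) had 109.9, 164.4, 155.8 and 137.2 units in vehicle and 105.9, 172.8, 175.5 and 117.2 in acetate. It was higher in acetate in pairs 2 and 3 and lower in pairs 1 and 4, and its mean log2 change was -0.01 with a blocked SE of 0.09. The counting interval of Per2 included 0 in 4 of 4 pairs. Per3 (ENSMUSG00000028957, chromosome 4, 151003652 to 151044665, minus strand) had 186.3, 386.6, 438.3 and 438.8 units in vehicle and 152.3, 488.7, 413.3 and 456.4 in acetate. Its pairs went opposite ways beyond counting error, with -0.29 in pair 1 (interval -0.57 to -0.01) and 0.34 in pair 2 (interval 0.16 to 0.51). The mean log2 change of Per3 was 0.01 with a blocked SE of 0.08, and the SD of its pair differences was 0.26 against 0.04 for Per1.

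Bhlhe40 encodes DEC1, a repressor that competes for E-boxes and that also responds to hypoxia and other signals (ENSMUSG00000030103, chromosome 6, 108660629 to 108666925, plus strand). It had 2149, 3528, 2948 and 3575 units in vehicle and 2527, 3704, 3301 and 3847 in acetate. Acetate was higher in 4 of 4 pairs, and the groups overlapped widely because replicates 1 and 3 were below replicates 2 and 4 in both. The log2 differences of Bhlhe40 were 0.23, 0.07, 0.16 and 0.11, with a mean of 0.14, a ratio of 1.10, an SE of 0.03 with the block and an SE of 0.19 without it. The counting interval lay above 0 in 4 of 4 pairs. Left without vehicle replicate 1 and unpaired, the mean log2 change of Bhlhe40 was -0.02.

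Of the nuclear receptor repressors, Nr1d2 was lower in acetate in every pair and Nr1d1 had no common direction, and the difference between their changes was not tested. Nr1d2 (ENSMUSG00000021775, chromosome 14, 18204054 to 18239127, minus strand) had 1425, 1409.6, 1362 and 1457 units in vehicle and 1329, 1299, 1272 and 1259.9 in acetate. It was the single member whose groups did not overlap, with every acetate library below every vehicle library, a pattern held by 132 of the 20189 genes (0.654%). The means of Nr1d2 were 1414 ± 39.5 and 1290.1 ± 30.9 units (SD, n = 4), a ratio of 0.913. Its log2 differences were small and even, at -0.10, -0.12, -0.10 and -0.21, with a mean of -0.13 and an SE of 0.03 with the block and 0.07 without it. The counting interval lay below 0 in 3 of 4 pairs.

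Nr1d1 (ENSMUSG00000020889, chromosome 11, 98767932 to 98775333, minus strand) had 710.8, 259.6, 297.6 and 249.1 units in vehicle and 766.8, 277.9, 295.4 and 240.8 in acetate. Replicate 1 stood apart in both groups, and within pairs the differences were 0.11, 0.10, -0.01 and -0.05. The mean log2 change of Nr1d1 was 0.04 with a blocked SE of 0.05, and the counting interval included 0 in 4 of 4 pairs. Thra overlaps Nr1d1 on the opposite strand over 263 exon bases (8.55% of the exon bases of Nr1d1) at a mean of 904 units, and whether counting used strand is not stated, so reads there may be shared.

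The D-box activators among the 10 genes, Dbp and Tef, had no common direction across pairs. Dbp (ENSMUSG00000059824, chromosome 7, 45705088 to 45710203, plus strand) was the least abundant, with 10.7, 56.2, 55.3 and 109 units in vehicle and 11.8, 61.4, 58.5 and 78.3 in acetate, from 14 to 160 reads. It was slightly higher in acetate in pairs 1 to 3 and lower in pair 4, and the counting interval lay beyond 0 in pair 4 alone, at -0.84 to -0.12. The mean log2 change of Dbp was -0.03 with a blocked SE of 0.16, so that a difference of the size of that SE could not be shown with these libraries. Sphk2 overlaps Dbp on the opposite strand over 539 exon bases (18.0%) at a mean of 499 units. Tef (ENSMUSG00000022389, chromosome 15, 81802421 to 81826863, plus strand) had 734, 792, 771 and 772 units in vehicle and 669, 854, 833 and 747 in acetate. Its mean log2 change was 0.01 with a blocked SE of 0.05, with 2 pairs higher and 2 lower. Antisense transcripts overlap 2.45% of the exon bases of Tef (Gm17597) and 2.51% of those of Bhlhe40 (0610040F04Rik, at a mean of 0.495 units).

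Hlf and Nfil3, the D-box factors that are no members, both rose in acetate in the paired comparison. Hlf, an activator of the same family as Dbp and Tef, had 12.2, 39.9, 34.2 and 230.0 units in vehicle and 23.5, 128, 86.8 and 305 in acetate. It was higher in 4 of 4 pairs, with a mean log2 change of 1.07 and an SE of 0.18 (limma with the replicate block, adjusted p 0.00429). The vehicle libraries of Hlf were spread widely, and the unblocked limma test, which called no gene in the table, did not call it. Without pair 3 the blocked adjusted p from limma was 0.0732. Unpaired, the log2 change of Hlf was 0.47 without vehicle replicate 1, 0.51 without acetate replicate 4, 1.73 without acetate replicate 1 and 1.85 without vehicle replicate 4, and edgeR gave 0.81 with the block. Nfil3, the repressor at the same elements, had 347, 611, 614 and 639 units in vehicle and 428, 641, 669 and 793 in acetate. Its mean log2 change was 0.20 with an SE of 0.05 (limma with the replicate block, adjusted p 0.034), and it was no longer called without any 1 of the pairs, at limma adjusted p between 0.0546 and 0.199. Over the blocked alternatives, edgeR and DESeq2 among them, the adjusted p ranged from 1.37e-04 to 0.0129 for Hlf and from 0.0179 to 0.129 for Nfil3.

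Across the whole table, limma without a block called 0 of 20189 genes at an adjusted p under 0.05 (0.0%), with 353 genes under an unadjusted 0.05, and edgeR on recovered reads called 0 with 295 under an unadjusted 0.05. None of the 10 clock genes was called by either. With the replicate number as a block, limma called 1744 genes (8.64%), of which 1209 were higher in acetate (5.99%) and 535 lower (2.65%). The 10 clock genes included 5 of these calls, Per1 and Bhlhe40 higher and Ciart, Cry1 and Nr1d2 lower, and nothing is read from that count because the genes were chosen on this contrast. With DESeq2 and the replicate block the count was 1, Ciart. In limma with the block, the count was 4 without pair 1, 2 without pair 2 and 0 without pair 3 or pair 4, in fits that called 1662, 617, 409 and 539 genes in all. The median log2 change of the 10 genes was 0.00 and that of all 20189 genes was 0.018. In all 4 pairs 2 of the 10 were higher and 3 lower, and over all genes 16.7% were higher and 11.4% lower in all 4.

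**Figure D3:**
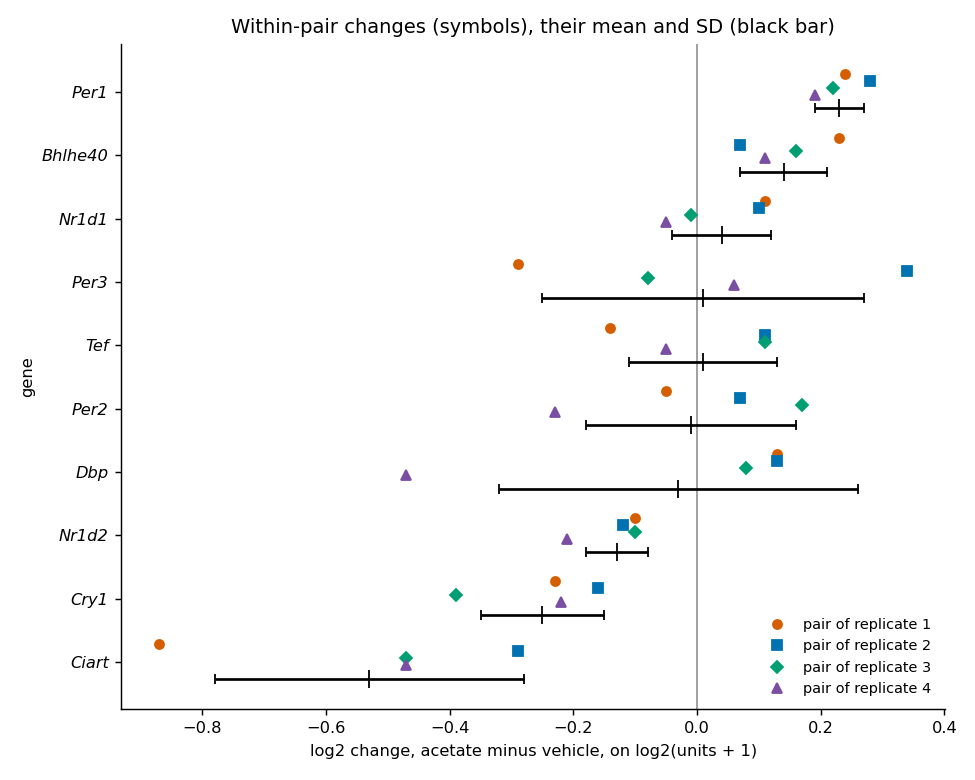
Log2 change of acetate against vehicle on log2(units + 1) (x axis) within each of the 4 same-numbered pairs (symbols) for the 10 clock genes, with the mean and SD of the 4 pairs as a black bar. The symbols of Per1 lie between 0.19 and 0.28, those of Ciart lie between -0.87 and -0.29, and those of Per3, Tef, Per2, Dbp and Nr1d1 fall on both sides of 0.

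The clock system outside the 10 genes was described with 76 further genes in 8 lists, of which 71 were in the table. With the replicate block 12 of the 71 passed (16.9%, beside 8.64% of all genes), 8 higher and 4 lower, and their median log2 change was 0.02. The lists were drawn up with results of these libraries known, so nothing is read from that share, and the count was 11, 4, 1 and 2 without pairs 1 to 4 in turn. The activators, on which the loop depends, gave 0 calls of 3. Clock had 1829, 1289, 1372 and 1119 units in vehicle and 1623, 1350.0, 1301 and 1093 in acetate, a log2 change of -0.05 (limma with the replicate block, adjusted p 0.478). Arntl had 311, 789, 738 and 1062 units in vehicle and 384, 731, 776 and 1050.1 in acetate, a log2 change of 0.06 (limma with the replicate block, adjusted p 0.606). The groups of Arntl overlapped, with replicate 1 lowest in each. Arntl2, a paralogue of Arntl, had a log2 change of -0.05 (limma with the replicate block, adjusted p 0.59).

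Neither repressor outside the 10 genes was called. Cry2, the second cryptochrome, had 240, 304, 308 and 269.6 units in vehicle and 232, 301, 301 and 263 in acetate, lower in 4 of 4 pairs by a mean log2 change of -0.03 with an SE of 0.06 (limma with the replicate block, adjusted p 0.808). The Cry1 change was -0.25 on the same scale, and the difference between the cryptochromes was not tested. Bhlhe41, which encodes DEC2, ranged from 76.9 to 831 units with a log2 change of 0.02 (limma with the replicate block, adjusted p 0.902). Of the ROR receptors, which activate Arntl, Rora had 0 to 7 reads in a library, too few to show a difference.

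Among 18 kinases, phosphatases and ubiquitin ligases of clock proteins, Csnk1e was the 1 called. It encodes casein kinase 1 epsilon, which phosphorylates PER proteins, and its vehicle libraries had 2462, 2211, 2208 and 2303 units against 2876, 2542, 2525 and 2649 in acetate. Every acetate library was above every vehicle library, as in 201 of all 20189 genes (0.996%). The pair differences of Csnk1e were 0.22, 0.20, 0.19 and 0.20, with a mean log2 change of 0.21 and an SE of 0.03 (limma with the replicate block, adjusted p 0.00136), and the call held without each pair in turn, at limma adjusted p from 0.00328 to 0.031. Among 18 cofactors and chromatin enzymes, 2 fell in the blocked fit. Sirt1, an NAD-dependent deacetylase, had 1350.0, 1127, 1151 and 939.8 units in vehicle and 1264, 1005, 978 and 791 in acetate, a log2 change of -0.19 (limma with the replicate block, adjusted p 0.0114). Ncor1, the co-repressor that NR1D1 recruits, had a log2 change of -0.12 (limma with the replicate block, adjusted p 0.015), and both were lower in 4 of 4 pairs. Without pair 1 both calls held, and without pair 2, 3 or 4 the limma adjusted p was 0.0618, 0.103 and 0.0857 for Sirt1 and 0.091, 0.0992 and 0.0539 for Ncor1.

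Of 18 clock-controlled output genes in the table, 3 rose and 2 fell in the blocked fit. Insig2, a regulator of sterol synthesis, rose by 0.19 on the log2 scale (limma with the replicate block, adjusted p 0.00592), Por, the cytochrome P450 reductase, by 0.15 (0.0336) and Noct, which encodes the deadenylase-like nocturnin, by 0.14 (0.0475). Por was higher in 3 of 4 pairs and the other two in 4 of 4. Tsc22d3, a glucocorticoid-induced gene also known as Gilz, fell by 0.30 (limma with the replicate block, adjusted p 0.0196), and the cold-induced RNA-binding protein gene Rbm3 fell by 0.14 (0.0132). Of 9 genes induced together with Per1 by serum, cAMP or glucocorticoid, 2 rose, the orphan receptor gene Nr4a1 by 0.20 (limma with the replicate block, adjusted p 0.0264) and the MAP kinase phosphatase gene Dusp1 by 0.26 (0.0495). Dusp1 and Noct lost the call without any 1 of the pairs, at limma adjusted p from 0.0957 to 0.219 and from 0.112 to 0.191. Por, Tsc22d3 and Nr4a1 kept it without pair 1 and lost it without pair 2, 3 or 4 (limma adjusted p 0.165, 0.227 and 0.205 for Por, 0.136, 0.152 and 0.0858 for Tsc22d3, and 0.133, 0.135 and 0.0803 for Nr4a1). Insig2 and Rbm3 lost it without pair 3 or 4 (0.0518 and 0.0516 for Insig2, 0.071 and 0.105 for Rbm3). Over the blocked alternatives with all libraries, the adjusted p was under 0.05 for Csnk1e (2.59e-04 to 0.00394), Sirt1 (0.00185 to 0.0213), Ncor1 (0.00188 to 0.0236), Insig2 (0.0025 to 0.0347), Tsc22d3 (0.00125 to 0.0361) and Rbm3 (6.54e-04 to 0.0256) in limma, edgeR and DESeq2. It was above 0.05 in at least 1 of them for Por (0.0141 to 0.0698), Noct (0.0272 to 0.235), Nr4a1 (0.0175 to 0.204) and Dusp1 (0.0271 to 0.173).

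**Figure D4:**
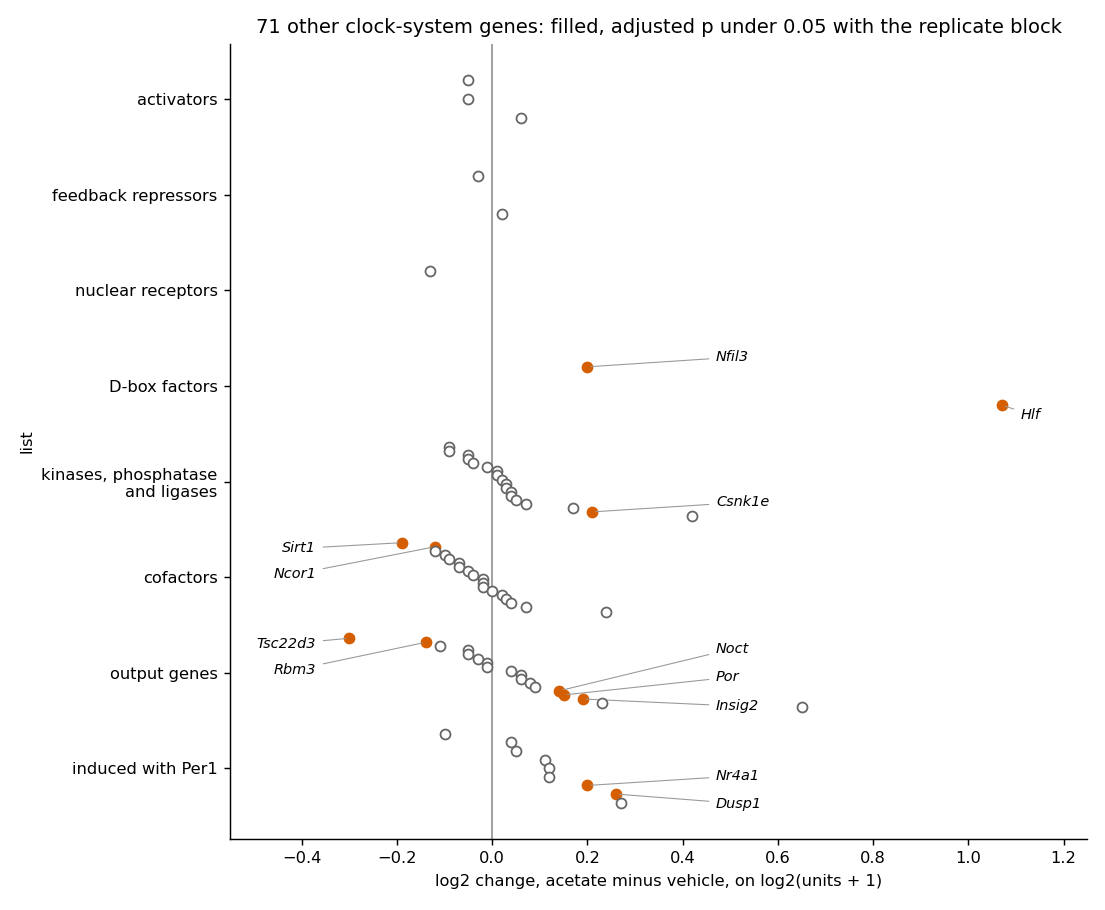
Log2 change of acetate against vehicle on log2(units + 1) (x axis) for 71 clock-system genes other than the 10, 1 circle per gene in 8 lists (rows), filled and named where limma with the replicate block gave an adjusted p under 0.05. Hlf lies farthest from 0 at 1.07. The 3 activators, 2 feedback repressors and 1 nuclear receptor left after taking out the 10 genes hold no filled circle.

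The replicate number, rather than the treatment, accounted for most of the variance of several clock genes. On the log2 scale it held 99.6% of the variance of Nr1d1 over the 8 libraries, 98.7% for Dbp, 96.4% for Per3, 92.9% for Per2, 92.1% for Bhlhe40, 81.6% for Per1 and 73.5% for Tef. The treatment held the larger share in 2 of the 10 genes, 80.4% for Nr1d2 and 51.4% for Cry1, and 42.9% for Ciart beside 49.9% for the replicate number. The replicate number has more levels than the treatment and so takes up more of any random spread. The shares are not corrected for this and do not rank replicate against treatment. Over the 13292 genes with a mean above 10 units, the median share was 90.5% for the replicate number and 2.88% for the treatment. Replicate 1 stood apart in several of the genes, and against the mean of the others Nr1d1 was higher there by 1.45 on the log2 scale, while Dbp was at -2.49, Per3 at -1.37, Bhlhe40 at -0.57, Per1 at -0.56 and Per2 at -0.49. Ciart was at -0.45, with acetate replicate 1 (142.8 units) below the other libraries and vehicle replicate 1 (262.6 units) within their range. In the other 6 libraries Nr1d1 lay between 240.8 and 297.6 units, Dbp between 55.3 and 109 and Per3 between 386.6 and 488.7. Nr1d2 and Cry1 were at 0.04 and 0.05 in the same comparison. What set replicate 1 apart was not tested.

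**Figure D5:**
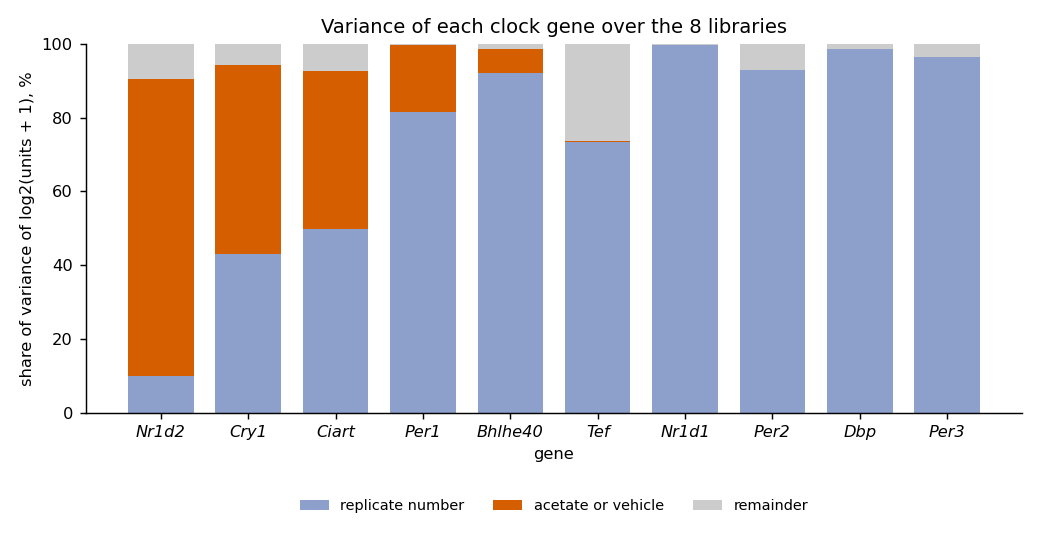
Share of the variance of log2(units + 1) over the 8 libraries (y axis, %) that goes with the replicate number, with acetate or vehicle, and with neither, for the 10 clock genes. The share of the treatment is 80.4% in Nr1d2, 51.4% in Cry1 and 42.9% in Ciart, and the replicate number holds 99.6% in Nr1d1.

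Per kilobase of exon, the 10 genes ranged from Bhlhe40, at 680.0 ± 128 units per kb, to Dbp, at 18.4 ± 10.8 (SD over 8 libraries). Nr1d2 followed Bhlhe40 with 250 ± 13.6 units per kb. Nr1d1 (126 ± 71.0), Ciart (112 ± 30.6), Tef (98.1 ± 7.38), Cry1 (96.3 ± 12.5) and Per1 (82.9 ± 15.8) came next, and the gap between neighbours in that run was smaller than the larger SD of each pair. Per3 (38.5 ± 13.3) lay below Per1, and Per2 (24.3 ± 4.89) below Per3, by more than that SD, whereas Per2 and Dbp were not separated.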

How the data were processed

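Messenger RNA was sequenced from 8 libraries of 4T1 cells, 4 with acetate and 4 with vehicle, grouped by the labels. Per the methods and the submitters' processing notes, stranded libraries were aligned to the mouse transcriptome (GRCm38/mm10) and read per gene with STAR and HTSeq, and genes seen in at least 4 libraries were kept. The deposited values are a normalised signal, scaled by the authors to a library total of 20000000. Every value was a whole multiple of 1 read in its library (100% within 0.05), which gave the recovered read totals over the genes of the table. The main test was limma 3.58.1 (trend, R 4.3.3) on log2(units + 1) over all 20189 genes with Benjamini-Hochberg adjustment, two-sided, threshold 0.05. Library-total scaling ties each value to all others. Because the step of 1 read in vehicle replicate 3 is close to 1, edgeR 4.0.16 and DESeq2 1.42.0 on recovered reads were alternatives only.

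The numbers pair the libraries: the labels give same-numbered libraries a shared code, and their deviations from the group means correlated at 0.814, 0.273, 0.201 and 0.691 over 18188 genes. Libraries of different numbers were not compared in this way, so the pairing rests on the labels. The study describes the replicates as independent experiments. Without the block, p-values measure the spread between the libraries of a group. With the block, they measure the spread of the within-pair differences across experiments. Members and gene lists were chosen with earlier results of these data known. Named genes were the 10 members, every gene of the lists of activators, feedback repressors, nuclear receptors and D-box factors, and, of the other lists, those past the threshold with or without the block, at most 4 per list and direction. Npas2, Rorb, Prkaa2, Lonrf3 and Zbtb16 were not analysed here, nor were the markers Krt5, Cd3e, Lum and Adipoq. A further gene and a marker of the lists are not reported here. Of the gene IDs, 20004 had a symbol in the annotation. The fits were tested on simulated data first. Levels per kb used GENCODE exon lengths, and promoter windows came from RefSeq.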

Additional observations from a re-analysis of the deposited data

Results flagged for a closer look

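In 5 of 56 groups of 4 libraries, 1 library lay apart from the other 3 by a gap, as a share of the range of the group, above the 95% critical value of Dixon for 4 values, where chance gives about 2.8, and 4 of the 5 were libraries of replicate 1. Nr1d1 was highest in replicate 1 of both groups, at 710.8 units against 249.1 to 297.6 in vehicle (gap 0.895 of the range) and 766.8 against 240.8 to 295.4 in acetate (0.896). Arntl2 was lowest in acetate replicate 1, at 481.1 units against 708.7 to 754.4 (0.833). Nfil3 was lowest in vehicle replicate 1, at 347.4 units against 611.2 to 639.5 (0.903), and Hlf was highest in vehicle replicate 4, at 230.0 units against 12.2 to 39.9 (0.873). The cause was not tested.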

How the results depend on the processing

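Every setting without the block called 0 genes, with 149 to 784 genes under an unadjusted 0.05. The replicate block changed the calls, to 1744 genes in all, 5 of the 10 clock genes and 12 of the 71 other clock-system genes. With the block, the corresponding counts were 1435, 5 and 8 at a pseudocount of 0.1 in place of 1, 1764, 5 and 12 at a pseudocount of 5, and 2263, 5 and 15 among the 13292 genes with a mean of at least 10 units. They were 1821, 5 and 10 with median-of-ratios scaling, 1734, 5 and 12 with quantile normalisation, 2400, 5 and 16 with edgeR, and 1126, 1 and 7 with DESeq2. The share of higher calls was 69.3% with the block, 54.9% with median-of-ratios scaling, 60.5% with quantile normalisation, 54.8% with edgeR and 58.0% with DESeq2. Leaving out 1 library or 1 pair gave 0 to 1662 genes in all, 0 to 4 of the 10 and 0 to 11 of the 71. Over the fits without 1 library, which break a pair, and those without 1 pair, log2 changes crossed 0 for Per2 -0.13 to 0.12, Per3 -0.29 to 0.40, Dbp -0.68 to 0.56, Tef -0.04 to 0.08, Nr1d1 -0.34 to 0.39, Bhlhe40 -0.02 to 0.27, Clock -0.15 to 0.08, Arntl -0.30 to 0.34, Arntl2 -0.19 to 0.10, Cry2 -0.10 to 0.05, Bhlhe41 -0.67 to 0.73, Rora -0.48 to 0.30, Nfil3 -0.01 to 0.38, Insig2 -0.07 to 0.43, Rbm3 -0.31 to 0.04 and Dusp1 -0.02 to 0.53. Bhlhe41 was also at -0.01 with quantile normalisation, with or without the block, and with edgeR without it. Per3 was at -0.01 with median-of-ratios scaling and with quantile normalisation, with or without the block. Tef was at -0.01 with median-of-ratios scaling and with edgeR, with or without the block, and with DESeq2 and the block. With the filter on the mean, Rora gave no value. Over the same fits without 1 library or 1 pair, the other called genes outside the 10 kept their sign. Tsc22d3 ranged from -0.61 to -0.05, Sirt1 from -0.30 to -0.08 and Ncor1 from -0.21 to -0.02. Noct ranged from 0.02 to 0.24, Por from 0.06 to 0.27 and Nr4a1 from 0.08 to 0.34. Csnk1e ranged from 0.16 to 0.24 and Hlf from 0.47 to 1.85. No setting that kept all 8 libraries changed the sign of Ciart, Cry1, Nr1d2, Per1 or Bhlhe40. Precision was limited for Dbp, with 14 to 160 reads, and Rora, with 0 to 7.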
